A study of Vitis vinifera with 16 samples.

Results

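The 77 transcripts described here stood higher in Gaotai (GT) than in Changli (CL) berries of the white grape Muscat Blanc à Petits Grains in every comparison of the same stage and vintage. They were chosen from the measured levels themselves. RPKM (a read count divided by transcript length and by the mapped reads of its library) was averaged over the libraries of a sample, and log2((GT + 1)/(CL + 1)) was taken in each of 8 pairs, 4 stages in the vintages 2010 and 2011. A member had a mean RPKM from 2 to under 1000 over the 16 samples, 8 ratios above 0 and a mean ratio of at least 0.5. Of 23984 transcripts in the deposited tables, 14382 lay within the limits on the level, 262 of these had 8 ratios above 0, and 77 (0.535% of the 14382) passed all conditions. The mirrored rule found 130 transcripts that were lower in GT in every pair.

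The study set the GT region of Gansu against the CL region of Hebei to find transcripts behind the different aroma of the berries. Deseeded berries were taken at stages E-L31 (pea-size, green), E-L35 (véraison, when berries begin to colour and enlarge), E-L36 (intermediate sugar) and E-L38 (harvest). The groups were GT and CL berries of 1 cultivar at the same stage, with no treatment. E-L numbers are the steps of a field scale of grapevine growth. Each group of a region and stage held n = 2 samples, 1 per vintage. The vines of a region stood in a single vineyard and were sampled in both vintages. The vines differed in planting year between the vineyards, so region cannot be told apart from vineyard, climate and vine age, and the p-values below measure the spread between vintages. Samples are bulk berry RNA, in which fewer cells of a type and less RNA per cell cannot be told apart. Markers of seed, skin or green tissue were not analysed here, since accessions came without product names.

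Berry growth has a green phase, in which acids accumulate and cells divide, and a ripening phase that starts at véraison with softening, sugar import and a wide turnover of the transcriptome. Abscisic acid, a hormone made from carotenoids, rises around véraison. Ripening skins also make flavonols, which screen ultraviolet light, and ripening Muscat berries store much of their monoterpenol aroma as sugar conjugates. Some of the few members with a known name act in these processes.

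Library totals ran from 3798921 to 22917077 counts, and the median sample held 11799070.5 counts in GT and 19320041 in CL. A pair of samples stood apart. The first was the 2011 GT sample of E-L31. Of 128 transcripts that were at least 4-fold higher at E-L35 than at E-L31 in CL in both vintages, 120 were more than 2-fold higher in GT than in CL in the E-L31 pair of 2011, with a median log2 ratio of 2.69, whereas 3 were in 2010, with a median of -0.74. None of these 128 of the 14382 transcripts within the limits on the level is a member (0 of 77). Nothing is read from this, since the rule needed every ratio above 0 and their median in 2010 was below it. The other was the 2010 GT sample of E-L38, whose 2 libraries differed in the members by a median of 0.63 on the log2 scale, against 0.31 over the 14382 transcripts. The study describes 2 biological repeats of berries per stage, region and year. The sources used here do not state that the 2 libraries of a sample are these repeats. Technical spread and spread between lots of berries therefore cannot be told apart. In the 2010 GT sample of E-L38 library 1 was the higher one in 71 of the 77 members, against 58% of the 14382 transcripts. Against the CL mean of that pair, library 1 alone gave 76 members above 0 with a median ratio of 0.64, and library 2 alone gave 46 members above 0 with a median of 0.07. Many members thus met the rule in the E-L38 pair of 2010 only through library 1. In the remaining samples with 2 libraries the members differed between libraries by a median of 0.11 to 0.34.

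The ratios of the members were smallest at E-L38 and in the 2010 pair of E-L31. The median ratio at E-L31 was 0.31 in 2010 and 0.83 in 2011, beside medians of -0.02 and -0.09 over the 14382 transcripts. At E-L35 it was 0.83 in 2010 and 0.84 in 2011, where all transcripts had medians of 0.21 and 0.14. At E-L36 the members had medians of 0.76 and 0.88, beside 0.24 and -0.15 over all, and at E-L38 medians of 0.44 and 0.40, beside -0.05 and -0.09. The members were thus most often close to the border of the rule at E-L31 of 2010, where 25 of them had their smallest ratio, and at E-L38, where 14 did in 2010 and 17 in 2011. The largest ratio of 21 members lay in the E-L31 pair of 2011, whose GT sample stood apart. Over the other 7 pairs 71 of the 77 kept a mean ratio of at least 0.5. The rule without that pair found 99 transcripts, 70 of them members.

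**Figure D1:**
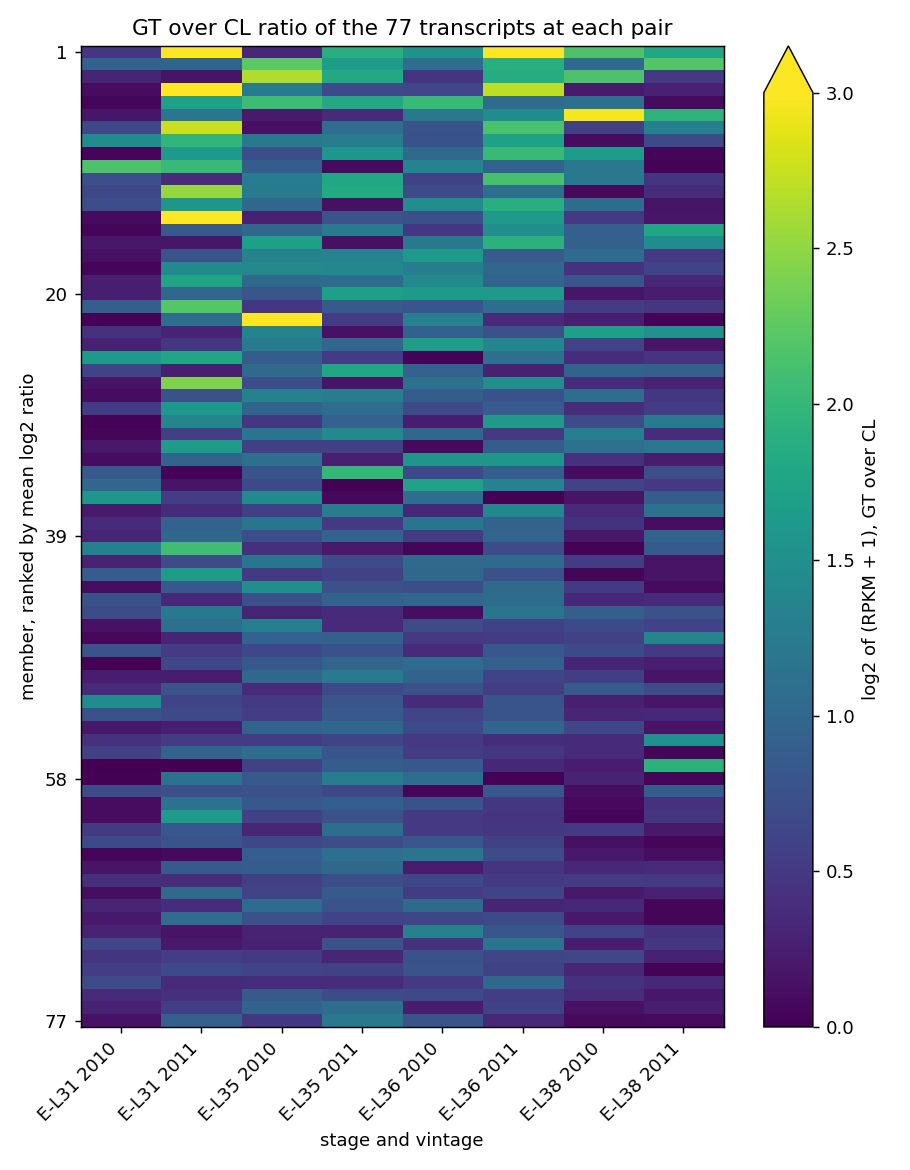
Each row is 1 of the 77 members, ranked by its mean ratio with the largest at the top, and each column a pair of the same stage and vintage; the colour gives log2 of (RPKM + 1), GT over CL, from 0 to 3 and above. The largest ratio, 4.04, stands in the E-L31 column of 2011, and the columns of E-L31 in 2010 and E-L38 are the darkest.

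**Figure D2:**
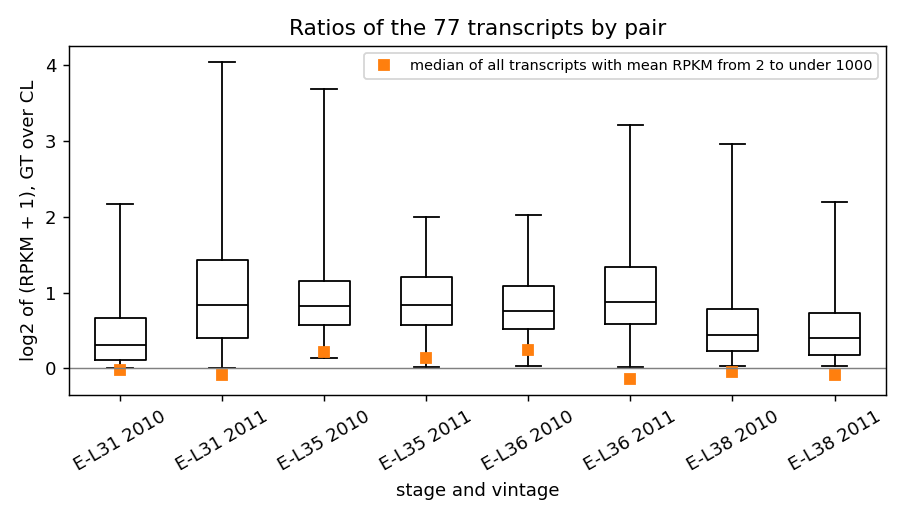
Boxes show the quartiles, centre lines the medians and whiskers the full range of the log2 ratios of the 77 members in each pair, and orange squares the median of the 14382 transcripts with a mean RPKM from 2 to under 1000. Member medians lie between 0.31 and 0.88, while the squares lie between -0.15 and 0.24.

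How far the groups stood apart differed between stages. Both GT samples lay above both CL samples in 55 members at E-L31, beside 15.5% of the 14382 transcripts, in 62 at E-L35 (43.7%), in 64 at E-L36 (21.5%) and in 50 at E-L38 (15.6%). These counts follow in part from the rule and are given as a description. In 20 members the vintages of GT lay above those of CL at all 4 stages, which was so for 68 of all 14382 transcripts (0.473%). In 0 members did the lowest of the 8 GT samples exceed the highest of the 8 CL samples, which was so in 0 of the 14382 transcripts (0%) as well. Between single libraries, both GT libraries lay above both CL libraries at E-L35 in 74 members in 2010 and 68 in 2011 (46.8% and 47.2% of all). At E-L38 this was so in 24 members in 2010 and 47 in 2011 (14.2% and 20.9% of all), and in all 4 pairs with such libraries it was so in 11 members, beside 1.55% of all.

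The border of the rule was narrow. The members just inside the limit on the mean ratio were XM_002269375.2, XM_002284642.2 and XM_002285364.2, with 0.50, 0.51 and 0.51, and just outside lay XM_002285058.2, XM_002269649.1 and XM_002273496.2, each with 0.50 after rounding. The smallest of the 8 ratios was 0.005 in XM_002276193.2, 0.015 in XM_002278828.2 and 0.016 in XM_002284959.1. It was 0 in XM_002275288.2 and XM_003631572.1 and -0.005 in XM_002268137.1, which were left out. At the limit on the level, XM_003633213.1, XM_003632715.1 and XM_002281031.2 were in, with mean RPKM of 2.05, 2.09 and 2.16, and XM_002274334.1, XM_003632394.1 and XM_003635564.1 were out, with 1.91, 1.87 and 1.68.

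The members were mostly transcripts of low to middling level. Their mean RPKM had a median of 10.2 and ran to 148, beside a median of 14 over the 14382 transcripts. The mean ratio had a median of 0.71 among the members and was 1 or more in 13 of them. The SD of a member's 8 ratios had a median of 0.49, which is not far below the median of the mean ratios. Counts behind single values were small at the low end, with 55 members at 10 or more counts in every sample and 2 members at 0 in some sample.

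Of the 77 accessions, 54 matched a gene of the RefSeq annotation of the assembly ASM3070453v1 (Pinot Noir). Only one of these carries a symbol other than a locus number, FLS1 (XM_002285803.2, chromosome 18), flavonol synthase, which makes flavonols from dihydroflavonols. Names of 4 further members come from the tables of the study, and the others are given by accession with no role. The named ones are XM_002268809.2, a UDP-glycosyltransferase (UGT), XM_002283157.2, a phytoene synthase, and XM_002273195.1, a subunit B-8-like protein of the transcription factor NF-Y. XM_002274935.1 is an uncharacterized protein listed there among transcription factors.

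FLS1 was a scarce transcript that was most abundant at harvest. In GT it had 0.186, 1.84, 1.60 and 7.47 RPKM at the 4 stages of 2010, against 0.150, 0.724, 0.270 and 1.72 RPKM in CL. The 2011 berries had 3.28, 2.04, 3.05 and 10.6 RPKM in GT, against 0.403, 0.022, 0 and 10.2 RPKM in CL. The 7.47 RPKM averages libraries of 13.5 and 1.44 RPKM in GT, against libraries of 1.49 and 1.95 RPKM in CL, so at E-L38 of 2010 the excess in GT rests on 1 library. At E-L35 and E-L36 the GT and CL samples did not overlap, whereas at E-L38 the 2011 values of the regions were close and at E-L31 only the 2011 GT sample exceeded 1 RPKM. The mean log2 ratio was 1.09 ± 0.75 (SD over 8 pairs), and 1.01 without the E-L31 pair of 2011. Over the stages FLS1 rose by 1.08 on the log2 scale per stage (SE 0.28, edgeR adjusted p = 0.00795). E-L38 over E-L35, averaged over the regions, gave a log2 ratio of 3.20 (SE 0.83, edgeR adjusted p = 0.0183), and this call was lost without either GT sample of E-L35 or without the 2011 sample of CL at E-L35, of CL at E-L38 or of GT at E-L38 (highest adjusted p = 0.0673).

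Of the 4 phenylpropanoid and flavonoid symbols that the reference table gives, FLS1 was the only member. CHS3 (XM_002263983.1), a chalcone synthase that starts flavonoid synthesis, had a mean ratio of 1.12 with 7 of 8 pairs above 0, and its lowest ratio was -1.08. 4CL (XM_002274958.2), which activates cinnamic acids, averaged 0.14 with 6 pairs above 0, and GVVPAL2 (XR_077533.2), a phenylalanine ammonia lyase that opens the phenylpropanoid route, averaged -0.53 with 4 pairs above 0. The median mean ratio of these 4 was 0.61, beside 0.02 over the 14382 transcripts. Slopes over the stages passed the test upwards in 1 of them and downwards in 1.

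XM_002268809.2 belongs to the UGTs, enzymes that attach sugar to small molecules such as monoterpenols and flavonols. It had 2.27, 6.61, 5.90 and 8.73 RPKM in GT from E-L31 to E-L38 of 2010, against 1.10, 5.94, 3 and 5.54 RPKM in CL. In 2011 it had 11.8, 13.5, 17.5 and 12.3 RPKM in GT, against 0.886, 5.88, 3.18 and 4.46 RPKM in CL. The GT samples lay above the CL samples at all 4 stages, and the gap was wider in 2011 than in 2010 at every stage. The mean ratio was 1.17 ± 0.88 (SD over 8 pairs), or 0.95 without the E-L31 pair of 2011. Over the stages it rose by 0.54 on the log2 scale per stage (SE 0.16, edgeR adjusted p = 0.0152), a call that limma on log2(RPKM + 1) did not make (adjusted p = 0.0568). It was 1 member among 52 UGT transcripts named in the study, of which 18 lay within the limits on the level. Their median mean ratio was 0.12, and 14 rose and 8 fell over the stages among 40 tested. The study chose part of these UGTs on the same samples.

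XM_002283157.2 encodes a phytoene synthase, the enzyme that commits isoprenoids to carotenoids and so precedes abscisic acid. It had 16.6, 24.3, 15.4 and 18.8 RPKM in GT from E-L31 to E-L38 of 2010, against 6.07, 17.97, 15 and 18.4 RPKM in CL. The values of 2011 were 23.4, 22.6, 24.6 and 19.5 RPKM in GT, against 4.77, 19.3, 14.9 and 10.3 RPKM in CL. The largest gap stood at E-L31, where GT berries of both vintages were already near their later level and CL berries were not. Its E-L35 over E-L31 ratio, averaged over the regions, was 1.25 (SE 0.24, edgeR adjusted p = 0.0322), and its slope was 0.31 per stage (SE 0.08, edgeR adjusted p = 0.00654). The step was called in only 11 of 21 alternatives, with ratios from 0.93 to 1.45, and the slope was lost under limma (adjusted p = 0.0659). Only 4.61% of its reads were unique, the others being shared by the authors' counting with similar transcripts. On unique reads alone 5 of its 8 ratios were above 0, with a mean of 0.27 in place of 0.70, so its membership rests on shared reads.

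The other transcripts of abscisic acid synthesis in the study's tables were not members. The second phytoene synthase, XM_002271539.2, had a mean ratio of 0.28 with 5 of 8 pairs above 0, and it fell over the stages by 0.35 on the log2 scale per stage (edgeR adjusted p = 0.00898). XM_002270125.1, a probable carotenoid cleavage dioxygenase, averaged -0.52 with 4 pairs above 0. Of the 6 transcripts listed 1 was a member, and 2 rose and 3 fell over the stages. The 5 abscisic acid response, 8 ethylene synthesis and 10 ethylene response transcripts held 0 members, with median mean ratios of 0.11, 0.49 and -0.86. The study chose these lists on the same samples.

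XM_002273195.1 is an NF-YB-type subunit, part of a complex of A, B and C subunits that binds promoters. It had 2.32, 7.68, 9.13 and 7.03 RPKM in GT from E-L31 to E-L38 of 2010, against 2.11, 4.75, 6.18 and 6.78 RPKM in CL. In 2011 there were 10.5, 6.48, 6.84 and 9.42 RPKM in GT, against 2.64, 3.46, 4.70 and 6.55 RPKM in CL. The 2011 GT sample of E-L31 was high and the 2010 one was near CL, so its mean ratio of 0.57 ± 0.50 (SD over 8 pairs) was 0.41 without that pair, below the limit of the rule. At E-L38 of 2010 its GT libraries had 10.5 and 3.59 RPKM, against 7.13 and 6.42 RPKM in CL. Its slope was 0.41 per stage (SE 0.12, edgeR adjusted p = 0.0152), a call lost without the 2010 CL sample of E-L31 (adjusted p = 0.0511). Among 10 NF-Y subunits in the study's tables it was the only member; the others had 1 to 7 pairs above 0, and the median of the 10 mean ratios was 0.15.

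For XM_002274935.1 the slope over the stages was not called (slope -0.06, edgeR adjusted p = 0.659). In 2010 it had 9.55, 7.94, 6.07 and 4.79 RPKM in GT from E-L31 to E-L38, against 7.74, 2.77, 1.22 and 2.78 RPKM in CL. The 2011 vintage gave 6.86, 12.4, 7.83 and 7.79 RPKM in GT, against 4.62, 5.76, 2.40 and 6.86 RPKM in CL. GT and CL samples were apart at E-L35 and E-L36 and overlapped at E-L31 and E-L38. Of the 268 transcription factor transcripts named in the study 185 lay within the limits on the level, of which 3 had 8 ratios above 0, 5 had 8 below 0 and 2 were members. Their median mean ratio was -0.14, and 156 of the 258 tested fell over the stages, against 15 that rose. The study chose these factors by their correlation with other transcripts in the same samples.

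**Figure D3:**
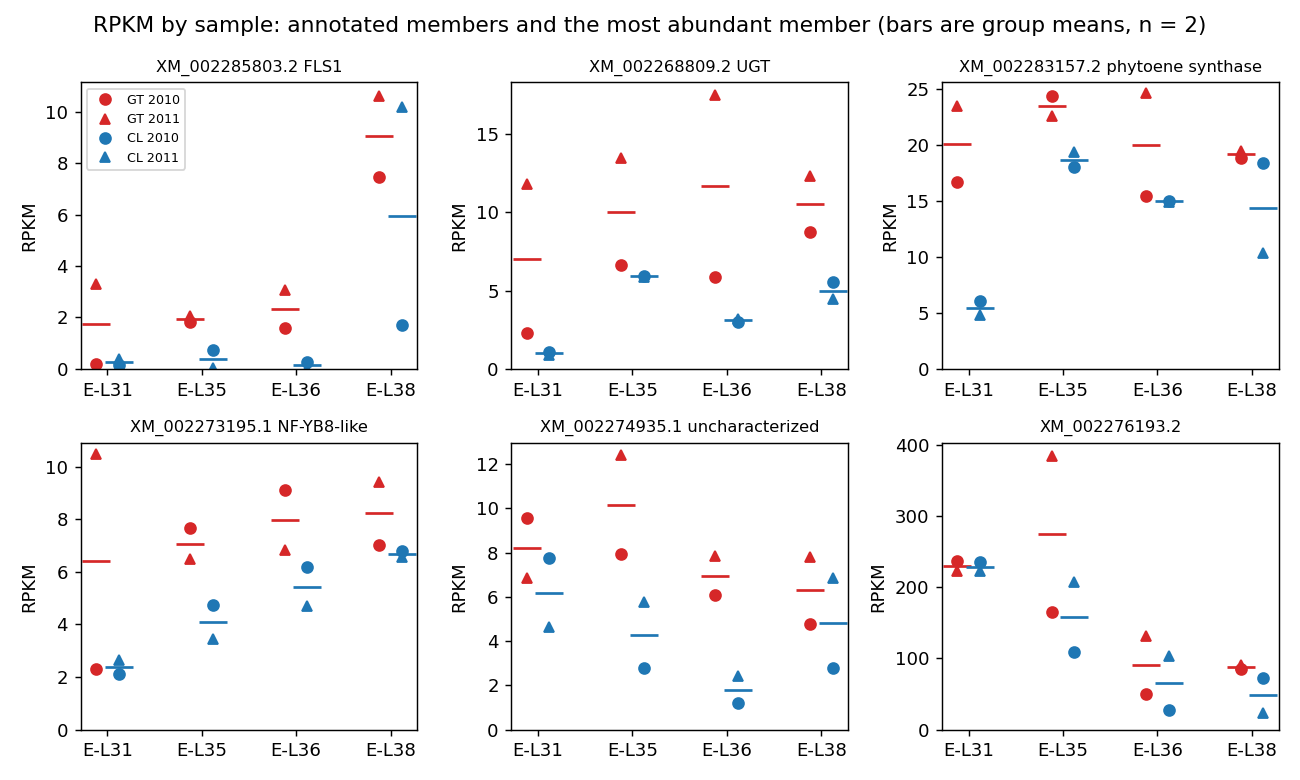
RPKM of the 5 members with a name or listing and of XM_002276193.2, the most abundant member, by stage; red marks GT and blue CL, circles 2010 and triangles 2011, and short bars the group means (n = 2). FLS1 reaches 10.6 RPKM in GT and 10.2 RPKM in CL at E-L38 of 2011, and the phytoene synthase differs most at E-L31.

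The member with the largest mean ratio was XM_002284757.1 (LOC100261242, chromosome 4). It had 0.892, 8.89, 19.97 and 56.8 RPKM in GT from E-L31 to E-L38 of 2010, against 0.361, 6.81, 6.26 and 11.95 RPKM in CL. In 2011 it had 44.8, 15.2, 71.7 and 78.3 RPKM in GT, against 2.22, 3.41, 6.85 and 22.01 RPKM in CL. GT samples lay above CL samples at E-L35, E-L36 and E-L38, while at E-L31 the 2010 GT sample lay between the CL samples and the 2011 one was far above. The mean ratio was 1.90 ± 1.20 (SD over 8 pairs), which is 3.73-fold on this scale, and 1.63 without the E-L31 pair of 2011. Over the stages it rose by 1.03 on the log2 scale per stage (SE 0.26, edgeR adjusted p = 0.00803).

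The ratio of XM_002283154.1 was never under 0.93 between sample means, the largest minimum of all members, and averaged 1.5 ± 0.56 (SD over 8 pairs). This transcript had the fewest counts of any member, 270 over all samples, with 208 in GT and 62 in CL. In 2010 it had 2.97, 6.40, 1.41 and 2.79 RPKM in GT from E-L31 to E-L38, against 1.08, 0.556, 0.144 and 0.854 RPKM in CL. In 2011 its levels were 7.22, 2.61, 4.43 and 6.08 RPKM in GT, against 3.22, 0.140, 0.480 and 0.550 RPKM in CL. The CL value of E-L31 in 2011 was the only one in CL to exceed the lowest GT values. At E-L38 of 2010, however, one GT library had 4.97 and the other 0.613 RPKM, against 1.02 and 0.691 RPKM in the CL libraries. No stage trend passed the test (slope -0.22, SE 0.20, edgeR adjusted p = 0.395).

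The next largest mean ratios belonged to XM_002276910.1 (1.24), XM_002271567.2 (1.24), XM_002266641.2 (1.24) and XM_002280226.2 (1.19). XM_002271567.2 (LOC100260288, chromosome 9) was nearly absent from green berries outside the 2011 GT sample, with 0.581 and 27.9 RPKM in GT at E-L31 of 2010 and 2011, against 0.469 and 0.755 RPKM in CL. At E-L38 it had 142 and 176 RPKM in GT, against 122 and 145 RPKM in CL. The vintages overlapped between regions at 3 of the 4 stages, and its mean ratio was 0.84 without the E-L31 pair of 2011. It had the steepest rise of all members, 2.00 on the log2 scale per stage (SE 0.34, edgeR adjusted p = 0.000799).

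XM_002266641.2 (LOC100258691, chromosome 16) had no called slope over the stages (slope 0.02, SE 0.10, edgeR adjusted p = 0.876). The 8 GT samples had 30.7 RPKM at the lowest, 38.4 at the median and 66.6 at the highest, against 7.45, 16.2 and 40.7 RPKM in CL. Only the CL sample of E-L38 in 2011 reached into the range of GT. XM_002280226.2 (LOC100249186, chromosome 11) had 53.1 and 101 RPKM in GT at E-L38 of 2010 and 2011, against 5.96 and 25.2 RPKM in CL. The 53.1 RPKM averages libraries of 93.9 and 12.3 RPKM, both above the CL libraries of 5.37 and 6.56 RPKM, and the largest ratio of this member, 2.96, comes from that pair. Its E-L38 over E-L35 ratio was 1.54 (SE 0.48, edgeR adjusted p = 0.0391). That call held in only 12 of 21 alternatives, over which the ratio ran from 0.89 to 1.87. XM_002276910.1 had 2.15 RPKM at the lowest, 6.72 at the median and 14.1 at the highest GT sample, against 0.116, 1.59 and 8.80 RPKM in CL, where it varied widely. At E-L38 of 2010 its GT libraries had 20.5 and 2.28 RPKM, against 1.22 and 2.29 RPKM in CL, and those of XM_002266641.2 had 47.6 and 14.4 RPKM, against 15.4 and 12.6 RPKM in CL.

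**Figure D4:**
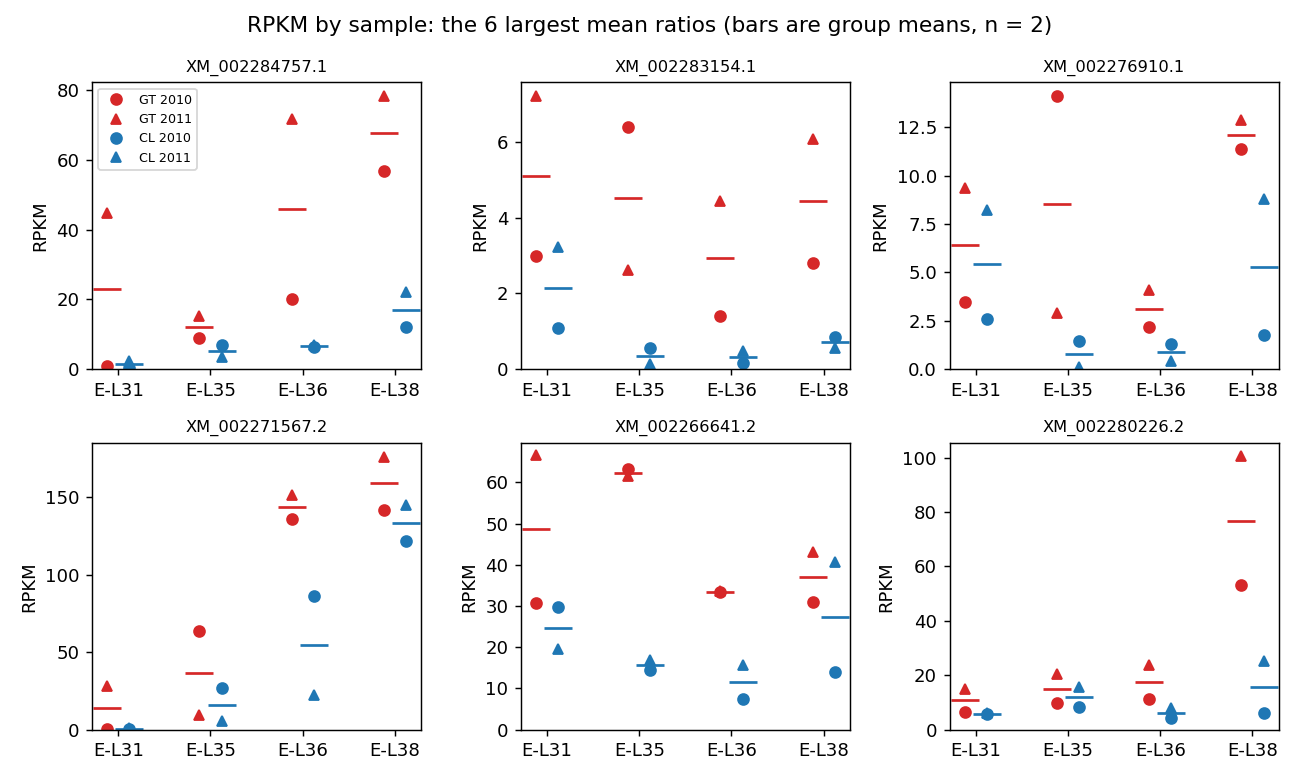
RPKM by stage of the 6 members with the largest mean ratio; red marks GT and blue CL, circles 2010 and triangles 2011, and short bars the group means (n = 2). XM_002284757.1 and XM_002271567.2 show the high 2011 GT value at E-L31, at 44.8 and 27.9 RPKM, and XM_002283154.1 stays low in CL at all stages but E-L31.

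The other members with a mean ratio among the 15 largest were XM_003632618.1 (1.14), XM_003631875.1 (1.08), XM_002270060.2 (1.06), XM_002281031.2 (1.06), XM_002264945.1 (1.00), XM_002272724.1 (0.99) and XM_002280947.2 (0.97). The UGT and FLS1, described above, complete them. XM_003632618.1 and XM_003631875.1 had only 12.7% and 28.5% unique reads, and on unique reads alone their mean ratios were 0.52 and 0.78 with 7 of 8 pairs above 0. By sample means XM_002270060.2 (LOC100243866, chromosome 3) lay above CL at all 4 stages, with 1.35, 3.28 and 8.11 RPKM at the lowest, median and highest GT sample, against 0, 0.864 and 4.87 RPKM in CL. At E-L38 of 2011 its GT libraries had 10.3 and 3.75 RPKM, against 4.55 and 5.18 RPKM in CL, so the excess there rests on 1 library. XM_002272724.1 owed part of its mean to the E-L31 pair of 2011, where GT had 186 RPKM and CL 13.2 RPKM, and its mean ratio without that pair was 0.60.

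After XM_002283154.1, the largest minima over the 8 pairs were 0.47 in XM_002267940.2, 0.38 in XM_002275091.1, 0.38 in XM_002277009.1 and 0.36 in XM_002270060.2. XM_002277009.1 (LOC100265548, chromosome 6) varied least between pairs, with a mean ratio of 0.53 ± 0.11 (SD over 8 pairs). It had 6.92 RPKM at the lowest, 7.67 at the median and 11.3 at the highest GT sample, against 4.46, 5.11 and 7.71 RPKM in CL, and the vintages did not overlap between regions at any stage. XM_002275091.1 and XM_002267940.2 lay higher, with medians of 15.4 and 53.6 RPKM in GT, against 7.15 and 33.7 RPKM in CL.

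Most abundant was XM_002276193.2, with a mean of 148 RPKM, whose level fell over the stages by 0.53 on the log2 scale per stage (SE 0.16, edgeR adjusted p = 0.018). In 2010 it had 236, 165, 50.3 and 85.4 RPKM in GT from E-L31 to E-L38, against 235, 109, 28.1 and 72.7 RPKM in CL. The second vintage gave 223, 384, 132 and 91.3 RPKM in GT, against 222, 207, 104 and 23.3 RPKM in CL. The regions were level at E-L31 in both vintages, and GT lay higher within each vintage at the later stages. Across the vintages, however, GT and CL samples overlapped at every stage but E-L38. Even there, the 2010 GT libraries had 94.6 and 76.3 RPKM, against 88.9 and 56.6 RPKM in CL, and so overlapped. With unique reads alone XM_002276193.2 had 7 of 8 pairs above 0. The next by level were XM_002272724.1 (88.5), XM_002278901.2 (77.1), XM_002285227.2 (71.3), XM_002285364.2 (71.0), XM_002271567.2 (69.7), XM_002263576.2 (65.3) and XM_002273794.2 (64.8), as mean RPKM over the 16 samples. XM_002285364.2 was steady, with 69.2 to 95.9 RPKM in GT, against 46.96 to 83.8 RPKM in CL, and the vintages did not overlap between regions at any stage. It shared most reads with other transcripts, as did XM_002285227.2 and XM_002273794.2 (7.42%, 10.3% and 6.87% unique). On unique reads alone XM_002273794.2 had a mean ratio of 0.53 with 6 of 8 pairs above 0, and XM_002285364.2 one of 0.53 with 8 of 8.

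The closest to the common profile, by Pearson's r of the 8 ratios with the members' median ratios over the 8 pairs, were XM_002285067.1 (r = 0.92), XM_002284959.1 (r = 0.92) and XM_002278901.2 (r = 0.88). These values describe likeness only, since the pairs share libraries and the members made the profile. XM_002285067.1 had 17.4 and 51.2 RPKM in GT at E-L31 of 2010 and 2011, against 16.9 and 18.3 RPKM in CL, and 52.7 and 84.4 RPKM in GT at E-L35, against 19.2 and 31.5 RPKM in CL. Its ratio then narrowed to 0.43 in 2010 and 0.61 in 2011 at E-L38.

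Some members shared most of their reads with other transcripts. Under 30% of reads were unique in 13 members (16.9%), against 10.3% of the 14382 transcripts, and under 95% in 20 members (26%), against 18.7%. On unique reads alone 66 of the 77 kept 8 ratios above 0, but only 6 of those 13 did. Some genes had a second transcript in the tables. XM_002285227.2 and XM_002285225.2 of LOC100246889 had mean ratios of 0.71 and 0.57, with 10.3% and 9.38% unique reads. On its unique reads alone XM_002285227.2 had a mean ratio of 0.88 with 8 of 8 pairs above 0. XM_003632715.1 of LOC100268161 had a mean ratio of 0.68 at 2.09 RPKM, while the abundant XM_002265136.2 of the same gene had 0.07 at 81.6 RPKM. Only 2.84% and 5.40% of their reads were unique. On its unique reads alone XM_003632715.1 had a mean ratio of 0.07 with 6 of 8 pairs above 0, so its ratio rests on shared reads.

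The matched members were spread over all 19 chromosomes, with at most 6 on any one. Few were close neighbours. XM_002285895.2 and XM_002284802.2 (LOC100252277 and LOC100267646, mean ratios 0.61 and 0.53) lay next to each other on chromosome 18, and XM_002281031.2 and XM_002281152.2 lay on the same chromosome with 1 gene between them. The gene between, with transcript XM_002281136.2, had a mean ratio of -0.24 and 1 pair above 0.

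The course over the stages, averaged over the regions, was a contrast that the rule did not set directly. Tested by edgeR over 19026 transcripts, 48 members rose and 6 fell, that is 62.3% and 7.79%, beside 23.1% and 26.7% of all transcripts tested. Within the limits on the level the background was 26.4% and 26.1%. The rising slopes had a median of 0.52 on the log2 scale per stage and the falling ones -0.51. With limma on log2(RPKM + 1), which scales to the library total and moves the median slope of all transcripts by -0.11, 33 members rose and 9 fell (42.9% and 11.7%), beside 9.27% and 42.5% of all. DESeq2 called 50 upwards and 6 downwards (23.7% and 28.6% of all). The median slope was 0.33 in members and 0.00 in all transcripts by edgeR, and 0.15 and -0.11 by limma.

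The slope was not wholly independent of the rule. Among the 14382 transcripts those that fell over the stages were above 0 in the E-L31 pair of 2011 in 17.7% of cases and in the E-L38 pairs in 23.2% (2010) and 19.4% (2011), whereas 72.5%, 66.1% and 60.5% of those that rose were above 0 there. With the pair of the E-L31 sample that stood apart left out of the rule and that sample left out of the fit, 50 of the 99 transcripts then chosen, 70 of them members, rose and 14 fell (50.5% and 14.1%), beside 26% and 26.9% of all tested. The rule for those 99 still used the E-L38 pairs. How much of the difference from the background the rule itself brings in was not tested.

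**Figure D5:**
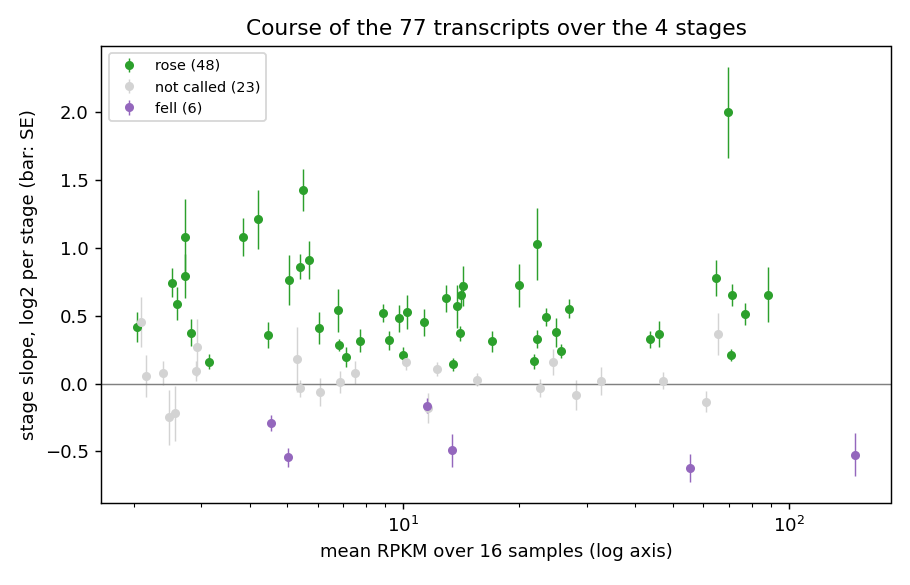
Slope over the 4 stages (log2 per stage, edgeR, with its SE as bars) of each of the 77 members against its mean RPKM on a log axis; green points rose (48), purple points fell (6) and grey points were not called (23). Rising members lie between mean RPKM of 2.05 and 88.5, with slopes up to 2.00.

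The lowest adjusted p-values for a rise belonged to XM_003631875.1, XM_002280947.2, XM_002285227.2, XM_003633381.1 and XM_002284060.1. XM_003631875.1 rose by 0.86 per stage (SE 0.09, edgeR adjusted p = 7.78e-05) and XM_002280947.2 by 1.43 (SE 0.16, edgeR adjusted p = 8.94e-05). The others rose by 0.65, 0.55 and 0.52. XM_002280947.2 (LOC100257229, chromosome 19) also rose late, with an E-L38 over E-L35 ratio of 2.90 (SE 0.45, edgeR adjusted p = 0.00194). It had 0.455, 3.78, 5.73 and 19.9 RPKM in GT from E-L31 to E-L38 of 2010, against 0.414, 1.39, 3.80 and 10.02 RPKM in CL, and in 2011 it had 1.93, 2.36, 6.45 and 22.9 RPKM in GT, against 0.641, 0.443, 1.66 and 6.05 RPKM in CL. In each region and vintage its highest sample was that of E-L38. The GT libraries of E-L38 in 2010 had 30.6 and 9.15 RPKM, against 8.39 and 11.65 RPKM in CL, so one of them lay within the range of CL.

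XM_002284060.1 (LOC100259436, chromosome 1) rose by 0.52 per stage with an SE of 0.07. It had 4.75, 9.18, 11.97 and 14 RPKM in GT from E-L31 to E-L38 of 2010, against 3.49, 6.86, 6.77 and 7.37 RPKM in CL. The 2011 berries had 8.30, 10.9, 11.5 and 17.7 RPKM in GT, against 4.46, 6.50, 7.55 and 10.6 RPKM in CL. At E-L38 of 2010 its GT libraries had 20.8 and 7.17 RPKM, against 8.50 and 6.24 RPKM in CL. By sample means the regions were apart at all 4 stages, with a mean ratio of 0.62 ± 0.18 (SD over 8 pairs), and its slope was called under all alternatives tried (highest adjusted p = 0.0013).

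The falling members with the lowest adjusted p were XM_002269375.2 (slope -0.54, edgeR adjusted p = 0.00019), XM_003635577.1 (-0.62), XM_002270579.1 (-0.29), XM_002277749.1 (-0.49) and XM_002276193.2 (-0.53). XM_003635577.1 (LOC100854531, chromosome 10) had 114 and 117 RPKM in GT at E-L31 of 2010 and 2011, against 70.4 and 49.7 RPKM in CL, and 24.9 and 28.03 RPKM in GT at E-L38, against 12.9 and 16.3 RPKM in CL. XM_002269375.2 likewise had 8.74 and 9.80 RPKM in GT at E-L31, against 7.78 and 4.73 RPKM in CL, and 2.13 and 2.35 RPKM in GT at E-L38, against 1.98 and 2.15 RPKM in CL. Its regions thus ended at nearly the same level. For XM_002276193.2 the call was lost without either GT sample of E-L38 (highest adjusted p = 0.0522).

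The steps between stages gave fewer calls. With calls set at an adjusted p up to 0.05 and a log2 ratio of 1 or more in size, E-L38 over E-L35 was called upwards in 17 members (22.1%) and downwards in 3 (3.9%), beside 3.71% and 10.6% of all transcripts tested. All 17 were among those with a rising slope and the 3 among those with a falling one. DESeq2 called 20 upwards and 4 downwards (4.34% and 11.7% of all), and limma 12 and 5 (1.81% and 7.52%). E-L35 over E-L31 was called upwards in 4 members (5.19%) and downwards in 0, beside 1.04% and 3.11% of all. DESeq2 called 10 and 1 (2.66% and 6.1% of all) and limma 2 and 1 (1.16% and 5.51%). The 4 were the phytoene synthase XM_002283157.2, XM_002267940.2 (1.33, edgeR adjusted p = 0.0388), XM_002270940.2 (1.78, edgeR adjusted p = 0.0423) and XM_002263576.2 (1.98, edgeR adjusted p = 0.0469). XM_002270940.2 was named after its values were seen. This count hung on single samples. Without the 2011 GT sample of E-L31, 18 members were called upwards and 1 downwards, beside 5.64% and 8.07% of all. In every other fit with 1 sample left out, the count of members called upwards fell or stayed the same. Fewer of all transcripts were called upwards in each of these fits too. The group of that sample then held 1 sample, so the lower counts are not read as a property of the members. Their median ratio ran from 0.19 to 0.37 in these fits.

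For 2011 over 2010 no member passed the test of edgeR. That is, 0 of the 77 and 0 of 19026 transcripts were called, with 16 members higher and 0 lower at an unadjusted p under 0.05, beside 736 and 613 of all transcripts (3.87% and 3.22%). DESeq2 called 2 members higher and 0 lower (15 and 7 of all transcripts, 0.0788% and 0.0368%) and limma 0. The lowest adjusted p over the alternatives was 3.99e-05 in XM_002281152.2, with a log2 ratio of 0.43 by edgeR (SE 0.07, adjusted p = 0.234). Its ratio was at most 0.46 in any alternative, so it was never called. One of the 2 called was XM_002280226.2 (lowest adjusted p 0.000259), with 1.03 by edgeR (SE 0.18, adjusted p = 0.234). The other was XM_002271949.2, with 1.28 by edgeR (SE 0.29, adjusted p = 0.427), named after its values were seen. Without the 2011 GT sample of E-L31, 16 members were higher and 4 lower at an unadjusted p under 0.05, beside 4.6% and 3.89% of all.

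The stage of the highest level was counted in each region, without a test, from the values that the rule used. By group means, 33 members had their highest level at E-L38 in GT, against 50 in CL, and 21 had it at E-L35 in GT, against 8 in CL. The lowest level stood at E-L31 for 35 members in GT, against 32 in CL. Shares over all transcripts were not counted for these stages. The 14382 transcripts had median ratios of 0.21 and 0.14 at E-L35, and of -0.05 and -0.09 at E-L38. Nothing is read from the counts of the highest and lowest stage. All 4 samples of E-L38 lay above all 4 of E-L31 in 16 members and below them in 5, beside 7.08% and 33% of the 14382 transcripts. For GT over CL itself, the contrast of the rule, edgeR called 1 member (0.0158% of all transcripts were called higher) and DESeq2 19 (0.815%), counts from which nothing is read. With vintage as a replicate block edgeR called 0 members (0%). Without the 2010 GT sample of E-L31 it called 26 (1.17%), without the 2011 CL sample of E-L38 5 (0.179%), and without any other single sample 0 to 2.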

How the data were processed

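The authors trimmed reads, mapped them to grape RefSeq transcripts in CLC Genomics Workbench, where a read with several hits was shared out by the unique reads of each transcript; the RefSeq release is not given in the sources used here. A second mapping by the authors, to terpene synthase transcripts of a CRIBI grape genome database, was not used here. Counts of all and of unique reads and RPKM per transcript, with transcript lengths, were deposited by the authors for 24 libraries of 16 samples. Library totals ran from 3798921 to 22917077 counts. The deposited RPKM was averaged over libraries to find the members, and the deposited counts were summed per sample and tested in edgeR 4.0.16 (R 4.3.3; TMM, quasi-likelihood, 8 groups of region and stage, vintages as replicates, at least 10 counts in at least 2 samples, Benjamini-Hochberg adjustment). The replicate number is the vintage in the labels, a season shared by all groups, and vintage as a block was an alternative. Deviations from group means were weakly related within a vintage (28 correlations, 8 of them over 0.1). All 77 members were tested. Calls needed an adjusted p of at most 0.05 and, except for slopes, a log2 ratio of at least 1 in size. On data simulated for the stage slope (19026 transcripts), the fit recovered 90% of changes of 0.5 and 100% of changes of 1 per stage. Of its calls there, 5.94% were false. The changes were put only into well-counted transcripts, with the same spread for all and no differences of region or vintage. These rates therefore do not carry over to members with few counts. DESeq2 1.42.0, limma 3.58.1, other scalings, filters, pseudocounts, libraries and samples left out were the alternatives.

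The members and lists were chosen with earlier results of these data known. Named transcripts were the 15 largest mean ratios, the 8 highest levels, the 5 strongest rising and 5 strongest falling slopes, the 5 largest minima, every member named in the study's tables, the 3 nearest each threshold and the 3 closest to the median profile. Most keyword lists, the markers of seed, skin and green tissue, and sequences were not analysed here, for want of product names and a sequence table. Symbols, chromosomes and neighbours were matched by accession without version to a RefSeq annotation of the assembly ASM3070453v1, and no coordinates were used.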

Additional observations from a re-analysis of the deposited data

How the results depend on the processing

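The rule kept 77 transcripts as stated. It kept 39 with a pseudocount of 5, 13 with a mean ratio of at least 1, 125 from library 1 alone and 41 from library 2 alone of samples with 2 libraries (65 and 30 of them members). With 1 pair left out it kept 75 to 223, the high counts being 223 without E-L31 of 2010 and 203 without E-L38 of 2011. With RPKM rescaled by TMM factors it kept 56, of which 51 were members, and with unique reads 73, of which 63 were members.

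When 1 sample was left out, the members' median slope ran from 0.30 to 0.35 on the log2 scale per stage. Over all transcripts tested the median slope ran from -0.005 to 0.012. Without the E-L31 pair of 2011 the rule found another set, of 99 transcripts, 70 of them members. With the GT sample of that pair also out of the fit, chosen after seeing the data, 14 of these 99 fell. That is not a count of the members, and its background is given above. For E-L38 over E-L35 the members' median ratio ran from 0.49 to 0.59 with 1 sample left out, beside -0.03 to 0.01 over all transcripts. Limma gave 5 downward calls in members, beside 7.52% of all. For E-L35 over E-L31 the members' median ratio ran from 0.19 to 0.58 with 1 sample left out, beside -0.03 to 0.01 over all transcripts. DESeq2 called 10 members upwards and 1 downwards (2.66% and 6.1% of all), and limma 2 and 1 (1.16% and 5.51%). For 2011 over 2010, DESeq2 called 2 members higher and leaving out 1 sample gave 0. The causes were not tested. Of the named members, the slope of XM_002274935.1, not called, (-0.06) ran from -0.168 to 0.013 with 1 sample left out and turned positive, to 0.013, without the 2010 CL sample of E-L38.

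With vintage as a replicate block, 48 members rose and 6 fell over the stages, beside 4404 and 5062 of all 19026 transcripts tested. E-L38 over E-L35 was called upwards in 18 members and downwards in 3, beside 696 and 1984 of all. E-L35 over E-L31 was called in 5 and 0, beside 241 and 601 of all. The block changed the side of the threshold in none of the 17 stage results of single transcripts that were followed over all alternatives. FLS1 could not be fitted to a usable error without the 2010 CL sample of E-L36, because the other sample of its group held 0 counts. The member with the fewest counts, XM_002283154.1, rests on 270 over all samples, so its single values carry much counting error.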
